A study of Mus musculus with 2 samples.

Results

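The 8 genes described here belong to a cytokine system. The ligands are Osm (oncostatin M), Il6 (interleukin-6) and Lif (leukaemia inhibitory factor). The other genes are the receptor chains Osmr, Il6ra and Lifr, the shared signalling chain Il6st (gp130) and the feedback inhibitor Socs3. All were taken by gene symbol, 8 of the 32285 genes in the deposited matrices, and each symbol stood on a single identifier. All 8 were detected in both libraries. The libraries hold single cells from scaffolds that had filled a cranial bone defect, 1 library from Gel50_CS50 scaffolds and 1 from Gel100 scaffolds. In both groups female Balb/c mice aged 6 weeks had the periosteum removed, a circular skull defect of 3.5 mm drilled and a scaffold without cells of that diameter inserted, and the cells were collected at week 1. The labels give no transgene or other agent in either group, and none of the sources at hand spells out the names Gel50_CS50 and Gel100. Per the labels' protocol cells of 5 mice were pooled for each scaffold, although both sample titles also carry the replicate number 5. Each library was taken as 1 pool, so there is 1 sample per group, the mice cannot be told apart, and no test between the scaffolds is possible.

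Oncostatin M, interleukin-6 and leukaemia inhibitory factor all signal through gp130. Each cytokine also needs a further receptor chain. The complex then activates JAK kinases and chiefly the transcription factor STAT3. The targets of STAT3 include Socs3, a protein that binds gp130 and the JAKs and shuts the signal down. Interleukin-6 can also act on cells that lack its receptor chain, through a soluble form of that chain shed from other cells. In bone repair, oncostatin M is known as a product of neutrophils, macrophages and T cells that acts on osteoblast-lineage and other mesenchymal cells through Osmr, and mouse oncostatin M signals mainly through Osmr rather than Lifr.

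After filtering and doublet removal, 7206 cells of the Gel50_CS50 library and 7601 of the Gel100 library remained, with medians of 16509.5 and 12707 unique molecular identifiers (UMIs, 1 per captured RNA molecule) per cell. Cells under 1000 UMIs made up 1.42% of the Gel50_CS50 cells and 11.3% of the Gel100 cells, and 24 barcode sequences occurred in both libraries. The cells formed 30 clusters, and marker genes gave names to 9 cell classes. A class name therefore says only that its cells resemble that type by their markers. Some clusters stayed unnamed, with 261 Gel50_CS50 cells (3.62%) and 939 Gel100 cells (12.4%), at median depths of 4981 and 809 UMIs. Most of them, 165 and 861 cells, lay in a cluster whose best marker score was that of stroma. The shares of cells given for each class count the unnamed cells in the total. The 7 classes with at least 50 cells in each library were compared. They were neutrophils (1402 Gel50_CS50 and 615 Gel100 cells), macrophages or monocytes (3611 and 3689), conventional dendritic cells (369 and 412), plasmacytoid dendritic cells (257 and 486), T or NK cells (507 and 1098), stromal cells (656 and 256) and endothelial cells (56 and 64). Mast cells or basophils (36 and 14 cells) and pericytes or smooth muscle cells (51 and 28) are given as levels only. The tissue label is cranial bone, but 8 osteoblast markers summed to 17.6 UMIs per 1e6 UMIs in the Gel50_CS50 stroma and 7.52 in the Gel100 stroma, with Bglap, Bglap2 and Dmp1 at 0 in Gel100. Levels are UMIs of a gene per 1e6 UMIs, summed over the cells of a class (CPM), and the range after a level is its exact Poisson 95% interval. Such intervals cover counting error only, neither the spread between mice or pools nor the fact that UMIs of a single cell are not independent. As counts come from transcript ends, levels of different genes are not compared.

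The promoters of 3 of the genes are shown because Socs3 is the gene whose levels passed the rule for a difference between the scaffolds, Lif the ligand that differed in macrophages, and Il6 the ligand that names the family. RefSeq promoters of build GRCm38.p6, each 250 bases before to 50 bases after the start site, matched 7 of the 8 genes. Capitals mark matches on either strand to a STAT palindrome (TTCNNNGAA), an AP-1 site (TGANTCA) or an NF-kB site (GGG, any 2 bases, TTTCC), none of which overlap here. The Socs3 promoter (chr11:117969317-117969616, minus strand) holds the STAT palindrome TTCTTAGAA, 154 to 146 bases before the start site, and 8.30% of 32851 promoters of the same length hold such a match. The Il6 promoter (chr5:30012864-30013163, plus strand) holds the NF-kB match GGGATTTTCC 44 to 35 bases before the start site and an AP-1 match 249 to 243 bases before it, which 1.63% and 7.81% of promoters hold. The Lif promoter (chr11:4257318-4257617, plus strand) holds an AP-1 match 228 to 222 bases before the start site. These matches describe letters, not binding. The sequences follow, 5' to 3' on the strand of the gene.
Socs3: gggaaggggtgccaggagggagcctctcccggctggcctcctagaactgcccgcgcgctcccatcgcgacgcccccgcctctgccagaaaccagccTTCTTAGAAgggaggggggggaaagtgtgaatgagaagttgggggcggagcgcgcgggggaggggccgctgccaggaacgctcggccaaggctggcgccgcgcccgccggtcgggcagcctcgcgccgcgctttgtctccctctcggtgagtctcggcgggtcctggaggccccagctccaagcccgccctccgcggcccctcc
Il6: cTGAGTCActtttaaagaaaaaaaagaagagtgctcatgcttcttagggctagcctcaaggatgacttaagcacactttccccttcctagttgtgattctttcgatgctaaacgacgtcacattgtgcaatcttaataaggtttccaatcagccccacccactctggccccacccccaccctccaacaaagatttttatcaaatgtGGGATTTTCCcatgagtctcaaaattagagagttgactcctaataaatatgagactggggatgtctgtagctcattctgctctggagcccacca
Lif: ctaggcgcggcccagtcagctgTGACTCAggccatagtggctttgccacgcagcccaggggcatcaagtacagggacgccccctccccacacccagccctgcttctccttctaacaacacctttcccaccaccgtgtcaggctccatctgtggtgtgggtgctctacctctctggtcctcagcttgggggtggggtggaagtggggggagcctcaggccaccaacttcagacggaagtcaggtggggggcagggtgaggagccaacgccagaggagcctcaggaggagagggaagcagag

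The genes fall into neighbouring pairs on the mouse genome. In mm10, Osm (chr11:4236420-4241026) and Lif (chr11:4257557-4272514) lie 16.5 kb apart on the plus strand, and Osmr (chr15:6813577-6874969) and Lifr (chr15:7090614-7197489) lie 216 kb apart on opposite strands. Socs3 (chr11:117966079-117970047), Il6 (chr5:30013114-30019981), Il6ra (chr3:89864059-89913196) and Il6st (chr13:112464070-112510086) stand alone.

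The ligands and their receptor chains were read in different cell types. Among the 7 compared classes Osm was highest in neutrophils and macrophages. The few mast cells or basophils had more, at 895 CPM in Gel50_CS50 and 262 CPM in Gel100. Osmr was highest in stromal, pericyte and endothelial cells, and Il6ra in myeloid cells. Il6st had its highest levels in the non-immune cells, although macrophages or monocytes, by their number, held 18.3% of its UMIs in the Gel50_CS50 library and 41.4% in the Gel100 library. Lifr stood highest in plasmacytoid dendritic cells. The class with the highest level among the 7 compared was the same in both libraries for 7 of the 8 genes, the exception being Il6.

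**Figure D1:**
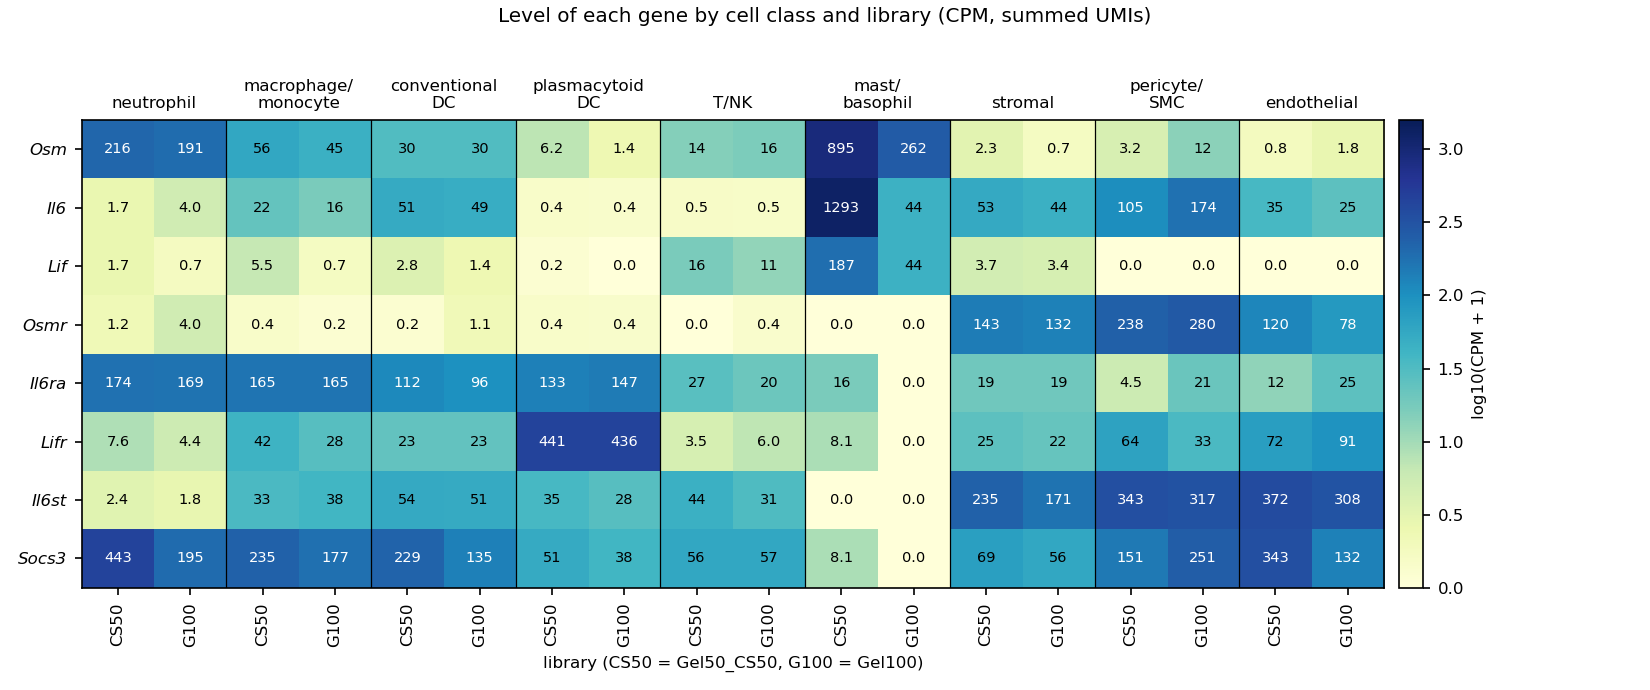
Level of each of the 8 genes (rows) in each of the 9 named cell classes, with Gel50_CS50 (CS50) left of Gel100 (G100) in each class. Numbers are CPM of summed UMIs and colour is log10 of CPM + 1. Osm and Il6ra are high in the myeloid columns, where Osmr is at 4.02 CPM or less, and Osmr and Il6st are high in the stromal, pericyte and endothelial columns.

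Osm, the ligand of the pair Osm and Osmr, was highest in neutrophils among the compared classes, at 216 CPM (204 to 227) in Gel50_CS50 and 191 CPM (175 to 208) in Gel100. Macrophages or monocytes came next with 55.5 CPM (53.8 to 57.2) in Gel50_CS50 and 44.7 CPM (43.0 to 46.4) in Gel100. Conventional dendritic cells followed at 29.9 CPM and 30.3 CPM, and T or NK cells at 13.6 CPM and 15.7 CPM, in Gel50_CS50 and Gel100. The counting intervals of these 4 classes did not overlap within either library. Plasmacytoid dendritic cells had 6.22 CPM in Gel50_CS50 and 1.44 CPM in Gel100, but 96.6% of the 29 UMIs in Gel50_CS50 came from 5 cells. Stromal cells had 2.31 CPM (87 UMIs) in Gel50_CS50 and 0.716 CPM (8 UMIs) in Gel100, and endothelial cells had a single UMI in each library. In mast cells or basophils the level was 895 CPM in Gel50_CS50 (110 UMIs in 11 of 36 cells) and 262 CPM in Gel100 (12 UMIs in 3 of 14 cells). Neutrophils carry few RNA molecules, and per cell the order of these classes turned round in Gel50_CS50 but not in Gel100: the mean was 1.01 Osm UMIs per neutrophil and 1.13 per macrophage in Gel50_CS50, and 0.850 and 0.742 in Gel100. By number, macrophages or monocytes held 66.1% of the Osm UMIs of the Gel50_CS50 library and 72.3% of those of the Gel100 library, and neutrophils held 23.0% and 13.8%. Neutrophils were 19.5% of the Gel50_CS50 cells and 8.09% of the Gel100 cells.

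Osm also varied within classes. Among neutrophils it was highest in the cluster led by Cxcr2, S100a9 and G0s2, at 300.5 CPM in Gel50_CS50 and 300.4 CPM in Gel100. Among macrophages it was highest in the cluster led by F10, Mir155hg and Cxcl10, at 121 CPM in Gel50_CS50 and 135 CPM in Gel100, while the other 6 macrophage clusters ranged from 27.7 to 63.2 CPM in Gel50_CS50 and from 26.7 to 47.5 CPM in Gel100. Among lymphoid clusters the NK cells led by Gzma, Xcl1 and Nkg7 had 22.2 CPM in Gel50_CS50 and 23.5 CPM in Gel100.

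Il6, the interleukin-6 gene, was spread over stromal, vascular and antigen-presenting cells. Pericytes or smooth muscle cells had 105 CPM (89.4 to 122) in Gel50_CS50 and 174 CPM (139 to 216) in Gel100. Stromal cells had 53.2 CPM (50.9 to 55.6) in Gel50_CS50 and 43.8 CPM (40.0 to 47.9) in Gel100, and conventional dendritic cells 51.2 CPM (46.5 to 56.2) and 48.6 CPM (43.9 to 53.7). The stromal and dendritic intervals overlapped in both libraries, so their order is not resolved. Endothelial cells had 34.7 CPM in Gel50_CS50 and 24.96 CPM in Gel100, and macrophages or monocytes 22.3 CPM and 16.3 CPM. Neutrophils, plasmacytoid dendritic cells and T or NK cells lay between 0.429 and 1.67 CPM in Gel50_CS50 and between 0.392 and 4.02 CPM in Gel100. All 11 of the Gel100 neutrophil UMIs came from 1 cell.

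In some classes few cells carried most of the Il6 message. The 5 richest cells held 51.3% of the dendritic Il6 UMIs in Gel50_CS50 and 55.2% in Gel100, but 18.8% and 38.6% of the stromal UMIs and 14.7% and 20.7% of the UMIs of macrophages or monocytes. In pericytes or smooth muscle cells they held 66.9% in Gel50_CS50 and 91.7% in Gel100, and in endothelial cells 81.8% and 100%. The 14 Il6 UMIs of the Gel100 endothelium lay in 2 cells. Macrophages or monocytes held 36.2% of all Il6 UMIs of the Gel50_CS50 library, in 318 cells, and 49.8% of those of the Gel100 library, in 243 cells. Of the dendritic Il6 UMIs, 359 of 437 in Gel50_CS50 and 249 of 386 in Gel100 lay in the cluster led by Dcstamp, Retnla and Cd209a, which shares markers with macrophages. In the dendritic cells led by Ccr7, Il6 had 34.8 CPM in Gel50_CS50 and 68.8 CPM in Gel100 (log2 ratio -0.98, interval -1.43 to -0.54). The largest level in any class was in the mast cells or basophils of Gel50_CS50, at 1293 CPM, where 159 UMIs lay in 7 of 36 cells, against 2 UMIs in 2 of 14 cells in Gel100. In 6 of those 7 Gel50_CS50 cells Osm was detected too, and in 2 of them Lif. Their median depth was 6621 UMIs, against 1045 over all mast cells or basophils of that library. Within the stroma Il6 was highest in the cluster led by Pi16, Opcml and Clec3b, with 183 CPM in Gel50_CS50 (78 cells) and 122 CPM in Gel100 (25 cells), and lowest in the cluster led by Mgp, Eln and Slc4a10, with 3.90 CPM and 10.3 CPM. Among macrophages the cluster led by F10, Mir155hg and Cxcl10 had 54.7 CPM in Gel50_CS50 and 73.7 CPM in Gel100, and the cluster led by Cd5l, Ccl6 and Hal had 52.5 CPM and 28.5 CPM. The cluster led by Stfa3, Arg1 and Cxcl3 had 23.1 CPM in Gel50_CS50 (346 UMIs) and 3.97 CPM in Gel100 (5 UMIs in 74 cells). Its log2 ratio was 2.54 (1.30 to 4.17). The cluster led by Ccl8, Mrc1 and Selenop went the other way, with 3.42 CPM and 7.11 CPM.

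Lif, a cytokine known for keeping stem cells undifferentiated, was the scarcest of the 3 ligands in UMIs, with 701 in the Gel50_CS50 library and 229 in the Gel100 library. T or NK cells had 15.9 CPM (12.8 to 19.5) in Gel50_CS50 and 11.5 CPM (9.52 to 13.7) in Gel100, with overlapping intervals. The log2 ratio was 0.47 with an interval of 0.07 to 0.87, which includes 1.5-fold. The gamma-delta T cells led by Cd163l1, Il23r and Trdc stood at 27.4 CPM in Gel50_CS50 and 18.9 CPM in Gel100. The NK cells led by Gzma stood at 23.5 CPM in Gel50_CS50 (53 UMIs) and 12.1 CPM in Gel100 (63 UMIs). Stromal cells had 3.75 CPM in Gel50_CS50 and 3.40 CPM in Gel100. The highest level was in mast cells or basophils, on few cells. It was 187 CPM in Gel50_CS50 (23 UMIs in 2 of 36 cells) and 43.6 CPM in Gel100 (2 UMIs in 1 of 14 cells). Pericytes and endothelial cells had no Lif UMI in either library, which allows up to 2.37 CPM in Gel50_CS50 endothelium and 5.35 CPM in Gel100 endothelium by a floor of 3 counts.

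In macrophages or monocytes Lif differed between the scaffolds, at a low level. The level was 5.47 CPM (4.94 to 6.03) in Gel50_CS50, from 403 UMIs in 143 of 3611 cells, and 0.718 CPM (0.522 to 0.964) in Gel100, from 44 UMIs in 25 of 3689 cells. The log2 ratio of Gel50_CS50 over Gel100 was 2.93 (95% counting interval 2.48 to 3.41). The mean of both libraries was under the 10 CPM required for a gene to count as measured, so it is not among the differences counted below. In Gel50_CS50, 158 and 192 of the UMIs lay in 2 of the 7 macrophage clusters. The first, led by F10, Mir155hg and Cxcl10, had 11.9 CPM of Lif in Gel50_CS50 (798 cells) and 2.64 CPM in Gel100 (540 cells). The other, led by Stfa3, Arg1 and Cxcl3, had 12.8 CPM in Gel50_CS50 (616 cells) and 0.793 CPM in Gel100, where the cluster held 74 cells and 1 Lif UMI. With both libraries given the same cluster weights the log2 ratio was 2.26. Macrophages or monocytes held 57.5% of the Lif UMIs of the Gel50_CS50 library and 19.2% of those of the Gel100 library, and T or NK cells held 13.1% and 54.1%.

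**Figure D2:**
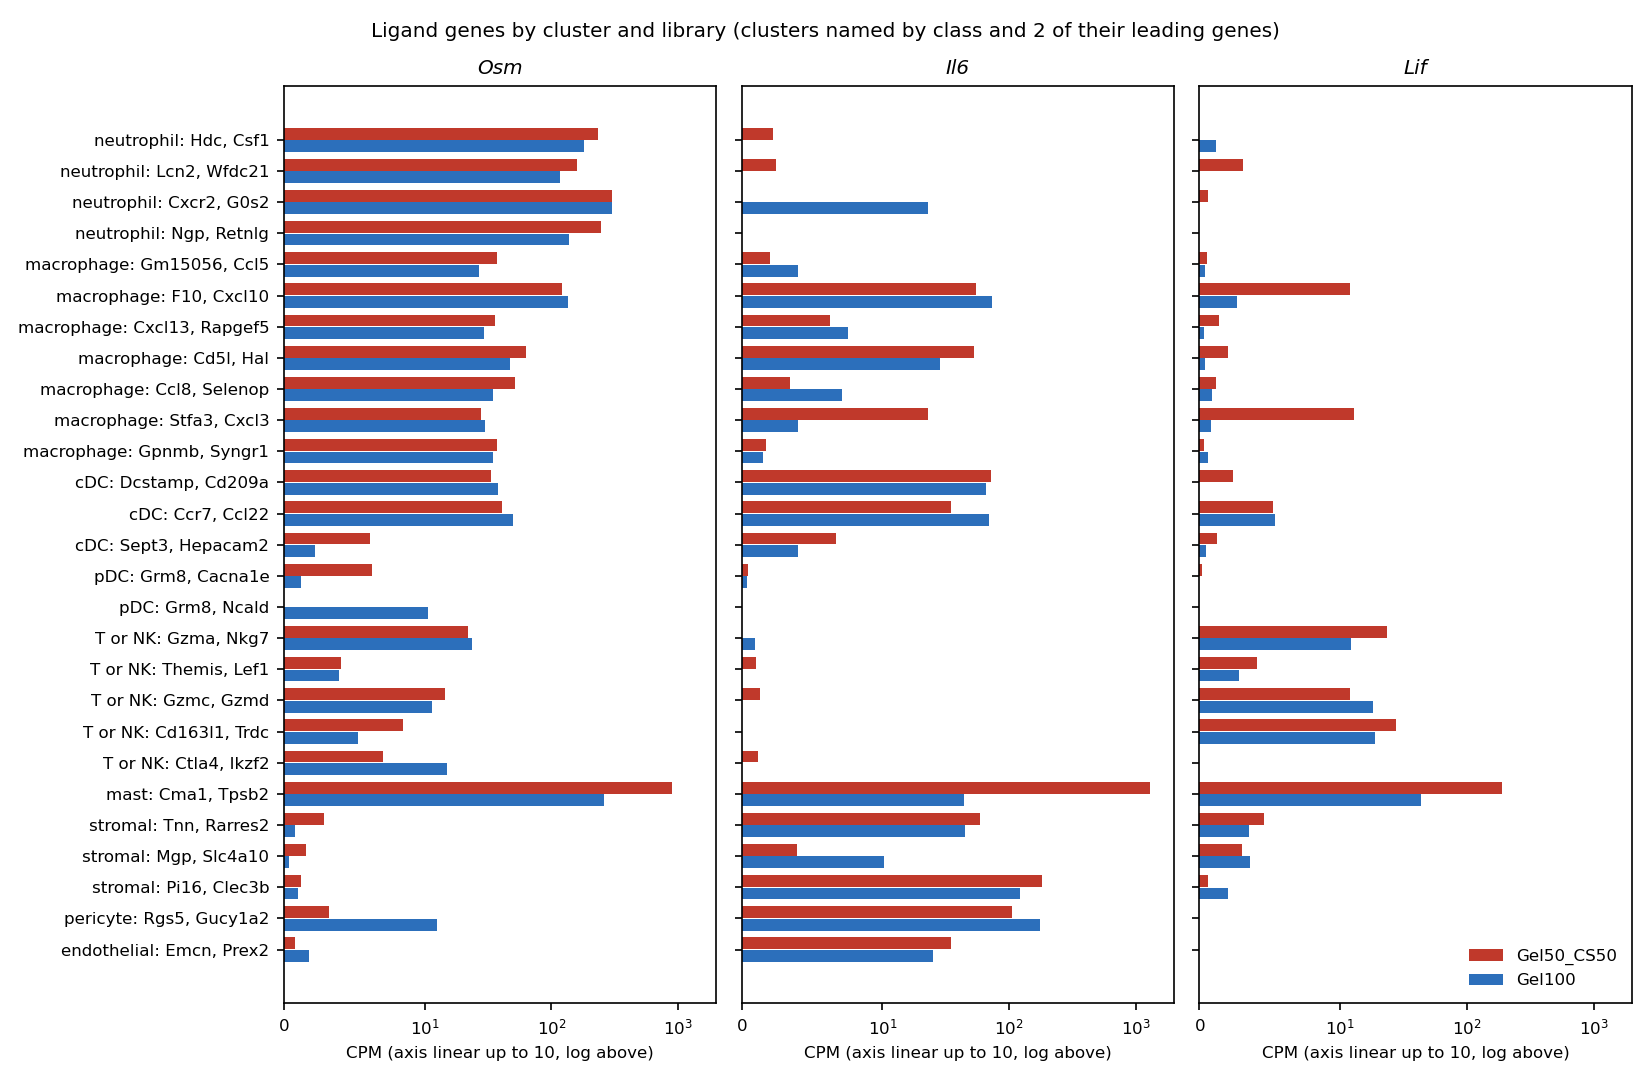
CPM of the 3 ligand genes in each named cluster, with Gel50_CS50 bars above Gel100 bars. Clusters are named by class and 2 of their leading genes, and the axis is linear up to 10 CPM and logarithmic above. Osm bars are long in every neutrophil cluster, Il6 bars in stromal, pericyte, dendritic and some macrophage clusters, and Lif bars in lymphoid clusters and, in Gel50_CS50, in the macrophage clusters led by F10 and by Stfa3. In Gel50_CS50 the mast cell bar is the longest for each of the 3 ligands.

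Osmr, the chain that makes a cell responsive to oncostatin M, was read in the non-immune classes. Stromal cells had 143 CPM (139 to 147) in Gel50_CS50 and 132 CPM (125 to 139) in Gel100. Pericytes or smooth muscle cells had 238 CPM in Gel50_CS50 and 280.0 CPM in Gel100, and endothelial cells 120.0 CPM (102 to 141) and 78.5 CPM (57.0 to 105). The endothelial intervals of the scaffolds overlapped, and the log2 ratio was 0.61 with an interval of 0.12 to 1.13, which includes 1.5-fold. No immune class exceeded 1.21 CPM in Gel50_CS50 or 4.02 CPM in Gel100, and T or NK cells had 0 UMIs in Gel50_CS50 and 4 in Gel100. When every cell was thinned to 3000 UMIs, 31.7% of the Gel50_CS50 stromal cells and 26.9% of the Gel100 stromal cells held an Osmr UMI, against 0.140% and 0.0882% of macrophages or monocytes. Before thinning the stromal shares were 93.0% in Gel50_CS50 and 75.0% in Gel100, at medians of 53741.5 and 45155.5 UMIs per cell.

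Within the stroma Osmr was at 172 CPM in Gel50_CS50 and 144 CPM in Gel100 in the cluster led by Tnn, Col5a3 and Rarres2. The Pi16 cluster had 181 CPM in Gel50_CS50 and 204 CPM in Gel100, and the Mgp cluster had 74.3 CPM and 65.9 CPM. Over whole libraries, Osmr stood at 41.4 CPM in Gel50_CS50 and 16.1 CPM in Gel100. Stromal cells, which held 90.4% of the Osmr UMIs of Gel50_CS50 and 86.9% of those of Gel100, were 9.10% of the Gel50_CS50 cells and 3.37% of the Gel100 cells, and within the stroma the ratio was 1.09-fold.

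Il6ra, which binds interleukin-6 and on its own carries no signal, was read across the myeloid classes at similar levels in both libraries. Neutrophils had 174 CPM (164 to 184) in Gel50_CS50 and 169 CPM (154 to 186) in Gel100, and macrophages or monocytes 165 CPM in each, with overlapping intervals between the classes in both libraries. Plasmacytoid dendritic cells had 133 CPM in Gel50_CS50 and 147 CPM in Gel100, and conventional dendritic cells 112 CPM and 96.5 CPM. T or NK cells had 26.7 CPM and 19.8 CPM. Within that class the T cells led by Themis and Lef1 had 87.6 CPM in Gel50_CS50 and 56.9 CPM in Gel100, while the NK cells led by Gzma had 1.77 CPM and 3.66 CPM. Stromal cells had 18.5 CPM in each library, with 56.3 CPM and 93.3 CPM in the Pi16 cluster.

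Lifr, the leukaemia inhibitory factor receptor chain, was highest in plasmacytoid dendritic cells, which are known for interferon production. The level there was 441 CPM (422 to 460) in Gel50_CS50 and 436 CPM (421 to 451) in Gel100, and 69.6% and 66.1% of these cells held a Lifr UMI at 3000 UMIs per cell, against 1.94% and 0.571% of neutrophils. Endothelial cells had 71.8 CPM in Gel50_CS50 and 90.9 CPM in Gel100, and pericytes or smooth muscle cells 63.7 CPM and 33.2 CPM. Macrophages or monocytes had 41.6 CPM (40.1 to 43.1) in Gel50_CS50 and 27.8 CPM (26.5 to 29.2) in Gel100, a log2 ratio of 0.58 (0.49 to 0.66), whose interval crosses the 1.5-fold line. With equal cluster weights that ratio was 0.20. The macrophage clusters spanned 7.56 to 89.8 CPM in Gel50_CS50 and 4.91 to 78.7 CPM in Gel100, highest in the cluster led by Ccl8, Mrc1 and Selenop in both. Plasmacytoid dendritic cells held 30.9% of all Lifr UMIs in Gel50_CS50 and 58.7% in Gel100, and were 3.57% and 6.39% of the cells.

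Il6st, the gp130 chain that all 3 ligands need, was highest in endothelial cells, at 372 CPM (339 to 407) in Gel50_CS50 and 308 CPM (264 to 358) in Gel100. Pericytes or smooth muscle cells had 343 CPM in Gel50_CS50 and 317 CPM in Gel100, with intervals that overlap the endothelial ones. Stromal cells had 235 CPM (230.4 to 240.2) in Gel50_CS50 and 171 CPM (164 to 179) in Gel100, a log2 ratio of 0.46 (0.39 to 0.53) that lies short of 1.5-fold. In the immune classes apart from neutrophils and mast cells the levels were 33.0 to 53.6 CPM in Gel50_CS50 and 27.8 to 51.1 CPM in Gel100. The Foxp3-bearing T cells led by Ctla4, Il2ra and Ikzf2 had 117 CPM in Gel50_CS50 and 129 CPM in Gel100, and the T cells led by Themis had 115 CPM and 79.2 CPM, above the NK cells led by Gzma at 14.2 CPM and 8.86 CPM.

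Neutrophils had Il6ra but hardly any Il6st. Il6st stood at 2.42 CPM (16 UMIs) in Gel50_CS50 neutrophils and 1.83 CPM (5 UMIs) in Gel100 neutrophils. At 3000 UMIs per cell, 35.9% of the Gel50_CS50 neutrophils and 35.4% of the Gel100 neutrophils held an Il6ra UMI, while 0.699% and 0.952% held an Il6st UMI. At the same depth Il6st UMIs were found in 10.2% of Gel50_CS50 and 10.8% of Gel100 macrophages or monocytes and in 46.9% and 40.4% of stromal cells. Before thinning, Il6ra and Il6st were found together in 0.571% of the Gel50_CS50 and 0.488% of the Gel100 neutrophils, at medians of 4340.5 and 4067 UMIs per cell. Mast cells or basophils had no Il6st UMI in either library, which at a floor of 3 counts allows 24.4 CPM in Gel50_CS50 and 65.4 CPM in Gel100.

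Osmr was found together with Il6st almost only in the non-immune classes, while Il6ra and Lifr were found with it in immune and non-immune classes. Osmr and Il6st were found together in 92.2% of the Gel50_CS50 and 69.9% of the Gel100 stromal cells, and in 53.6% and 25% of the endothelial cells, whose median depths were 18619.5 UMIs in Gel50_CS50 and 2015.5 in Gel100. Il6ra and Il6st were found together in 37.2% of the Gel50_CS50 and 34.2% of the Gel100 macrophages or monocytes and in 40.4% and 29.9% of the conventional dendritic cells. The stromal shares for Il6ra and Il6st were 40.4% in Gel50_CS50 and 28.1% in Gel100. Lifr and Il6st were found together in 38.5% of the Gel50_CS50 and 27.8% of the Gel100 plasmacytoid dendritic cells. They were also found together in 48.5% and 35.9% of the stromal cells and in 42.9% and 21.9% of the endothelial cells. These shares move with depth, which was larger in Gel50_CS50 in each of these classes.

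**Figure D3:**
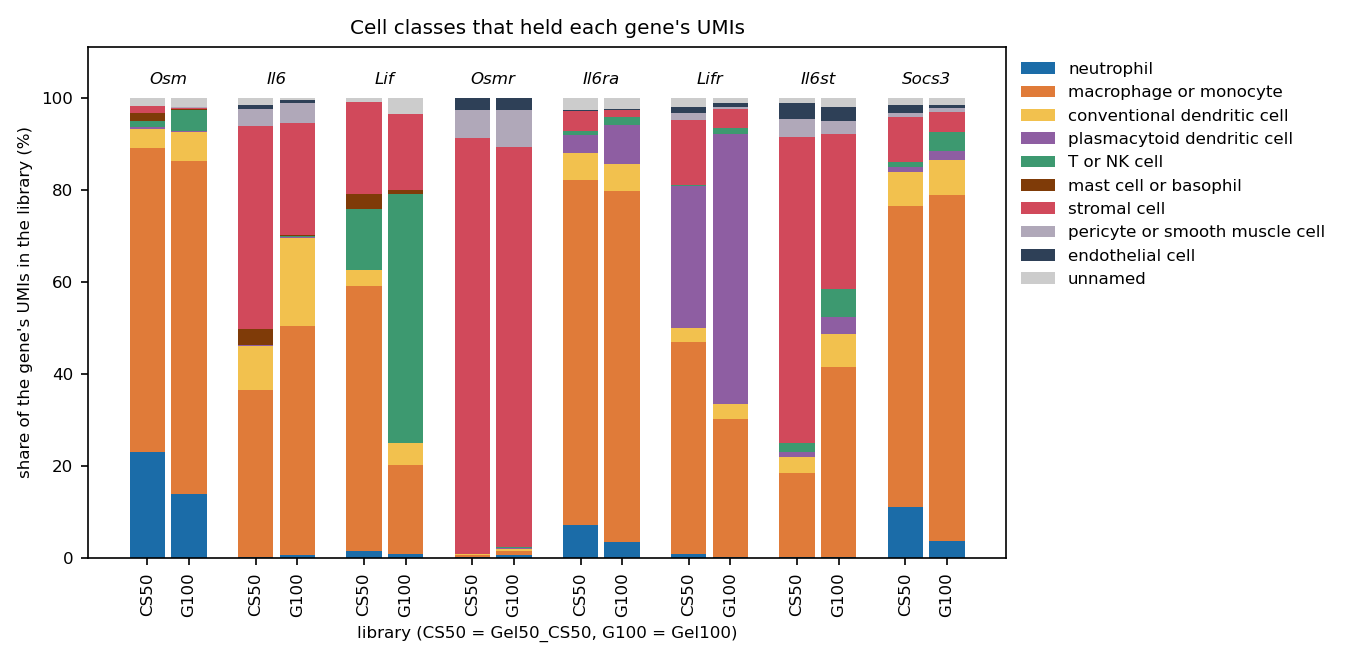
Share of each gene's UMIs (y axis, percent of that gene's UMIs in the library) held by each cell class, with Gel50_CS50 (CS50) left of Gel100 (G100). Stromal cells hold 90.4% and 86.9% of the Osmr UMIs, and the largest holder of Lif UMIs is the macrophage or monocyte class in Gel50_CS50 and the T or NK cell class in Gel100.

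Socs3, the feedback inhibitor, was the gene of the 8 that differed between the scaffolds at levels of at least 10 CPM. A gene counted as measured in a class where its mean over the libraries reached 10 CPM, and as higher or lower where the whole counting interval of its ratio lay beyond 1.5-fold. Of the 56 pairs of a gene and a compared class, 36 were measured, 3 were higher in Gel50_CS50 and 0 were lower, and all 3 were Socs3. Among all genes measured, 3.03% were higher in Gel50_CS50 in neutrophils, 1.77% in conventional dendritic cells, 1.94% in endothelial cells, 2.09% in macrophages or monocytes, 0.823% in plasmacytoid dendritic cells, 0.857% in T or NK cells and 0.931% in stromal cells. The shares lower in Gel50_CS50 were 5.25%, 2.32%, 3.99%, 3.73%, 0.599%, 1.15% and 2.12% in the same order of classes. With 1 library per group these counts describe 2 pools of cells and not the effect of the scaffolds.

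In neutrophils Socs3 stood at 443 CPM (427 to 460) in Gel50_CS50 and 195 CPM (179 to 213) in Gel100, a 2.27-fold difference (log2 ratio 1.18, interval 1.05 to 1.32). At 3000 UMIs per cell, 56.8% of the Gel50_CS50 neutrophils and 36.4% of the Gel100 neutrophils held a Socs3 UMI. The neutrophil class was made of different clusters in the libraries, with 660 Gel50_CS50 cells and 47 Gel100 cells in the cluster led by Lcn2, Il1f9 and Wfdc21. Socs3 was higher in Gel50_CS50 within each of the 4 neutrophil clusters: 423 CPM and 209.9 CPM where Hdc, Cxcl10 and Csf1 led, 461 CPM and 117 CPM where Lcn2 led, 477 CPM and 300.4 CPM where Cxcr2 led, and 75.5 CPM and 34.5 CPM in the immature-like cells led by Ngp, Camp and Retnlg. The Gel100 value where Lcn2 led rests on 22 Socs3 UMIs. The cells led by Ngp had 18 Socs3 UMIs in Gel50_CS50 (25 cells) and 13 in Gel100 (41 cells), with a log2 ratio interval of 0.02 to 2.28. With the same cluster weights in both libraries the neutrophil level was 427 CPM in Gel50_CS50 and 185 CPM in Gel100. The 22 neutrophil markers, all of them detected, summed to 107927 CPM in Gel50_CS50 neutrophils and 114573 CPM in Gel100 neutrophils. The 35 macrophage markers summed to 7682 CPM in the Gel50_CS50 neutrophils and 7159 CPM in the Gel100 neutrophils, with Ace at 0 in Gel100, and their part in the Socs3 levels was not tested.

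In conventional dendritic cells Socs3 stood at 229 CPM (219 to 240) in Gel50_CS50 and 135 CPM (127 to 143) in Gel100 (1.70-fold, log2 ratio 0.77, interval 0.66 to 0.88). The level was 284 CPM in Gel50_CS50 and 201 CPM in Gel100 in the cluster led by Dcstamp, Retnla and Cd209a, 176 CPM and 99.5 CPM in the cells led by Ccr7, and 127 CPM and 51.0 CPM in the Xcr1-bearing cells. The first of these clusters shares markers with macrophages, and without it the class stood at 153 CPM in Gel50_CS50 and 72.9 CPM in Gel100. In endothelial cells the level was 343 CPM (311 to 377) in Gel50_CS50 and 132 CPM (104 to 166) in Gel100 (2.60-fold, log2 ratio 1.38, interval 1.02 to 1.75). That value rests on 56 Gel50_CS50 and 64 Gel100 cells, of which 5 cells held 48.6% and 67.6% of the Socs3 UMIs. The neutrophil markers summed to 2697 CPM in Gel50_CS50 and 1552 CPM in Gel100 in the dendritic cells and to 159 CPM and 271 CPM in the endothelial cells, and their part in the Socs3 values was not tested. The 25 stromal markers summed to 3697 CPM in the Gel50_CS50 endothelial cells, with 1 of them at 0, and to 221 CPM in the Gel100 endothelial cells, with 6 at 0. The median depth of the endothelial cells was 18619.5 UMIs in Gel50_CS50 and 2015.5 in Gel100, and the part of the stromal markers and of depth in the endothelial Socs3 and Osmr values was not tested. With cells thinned to 3000 UMIs, which left out 7 Gel50_CS50 and 42 Gel100 endothelial cells, the log2 ratio of Socs3 was 1.05 in neutrophils, 0.88 (0.56 to 1.21) in conventional dendritic cells and 1.28 (0.29 to 2.42) in endothelial cells. The folds thus stayed beyond 1.5, and the wider intervals of the dendritic and endothelial cells were no longer wholly beyond it.

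In the other 4 classes the Socs3 ratio stayed short of 1.5-fold. Macrophages or monocytes had 235 CPM in Gel50_CS50 and 177 CPM in Gel100 (log2 ratio 0.41, interval 0.37 to 0.44). Plasmacytoid dendritic cells had 51.1 CPM and 38.4 CPM (0.41, 0.16 to 0.66), and stromal cells 68.6 CPM and 56.0 CPM (0.29, 0.17 to 0.42). T or NK cells had 56.1 CPM in Gel50_CS50 and 56.8 CPM in Gel100 (-0.02, -0.22 to 0.18). Across the 20 named clusters with at least 50 cells in each library, the Socs3 level was higher in Gel50_CS50 in 19 and lower in 1, the Foxp3-bearing T cells, with 40.1 CPM in Gel50_CS50 and 68.1 CPM in Gel100. Of 9136 genes whose mean over these clusters reached 10 CPM, 52 (0.569%) were higher in Gel50_CS50 in 19 or more, a limit set after the Socs3 values were seen. The other 7 genes were higher in Gel50_CS50 in 9 to 14 of the 20 clusters. Outside this set, pericytes or smooth muscle cells had 151 CPM in Gel50_CS50 (51 cells) and 251 CPM in Gel100 (28 cells), and the Pi16 stroma 96.9 CPM (78 cells) and 115 CPM (25 cells).

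**Figure D4:**
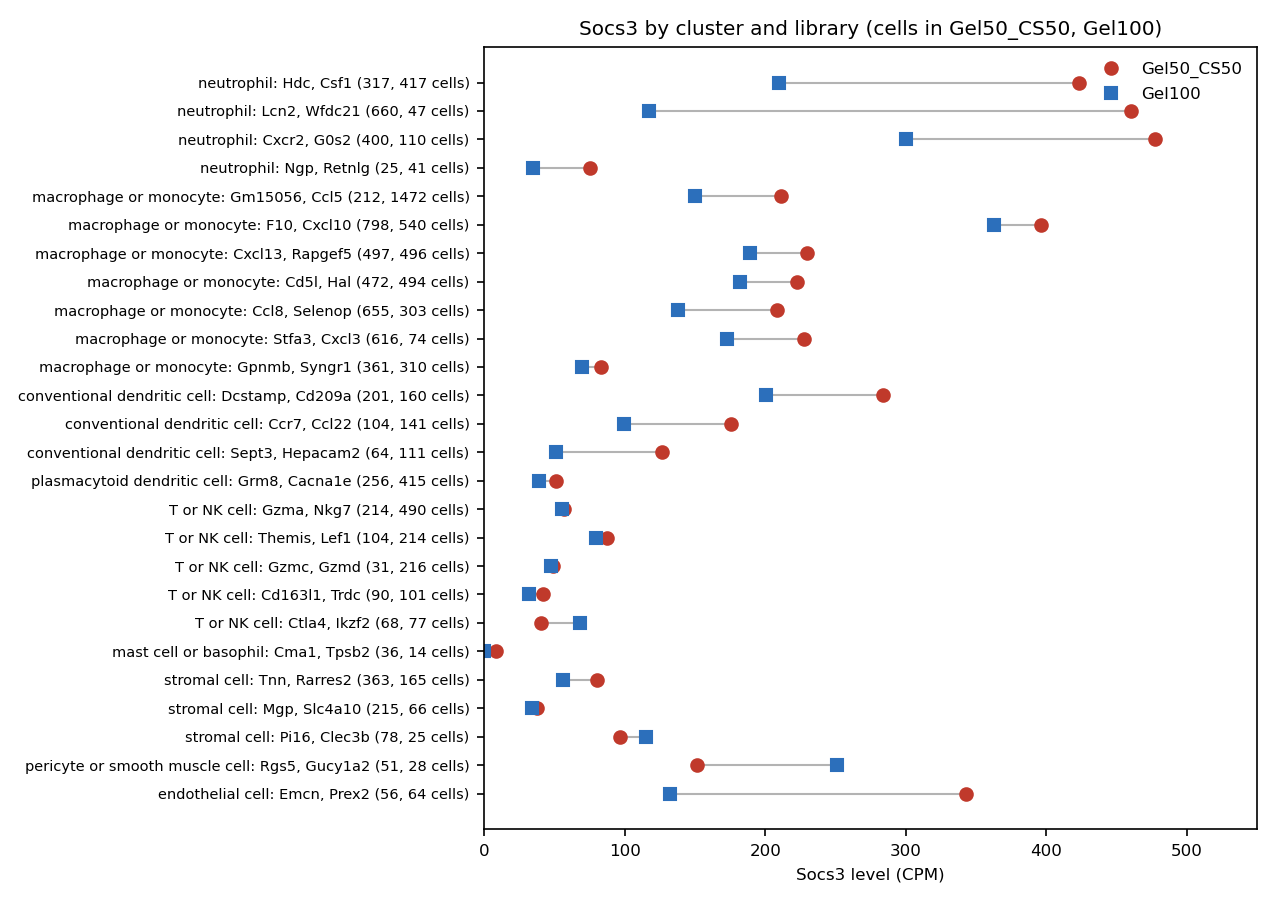
Socs3 level (CPM, linear axis) in each named cluster, with circles for Gel50_CS50 and squares for Gel100 and the cell numbers of both in brackets. The circle lies right of the square in all 4 neutrophil and all 7 macrophage clusters, and left of it in the T cells led by Ctla4, the Pi16 stroma and the pericytes.

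For the ligands and receptor chains, no measured ratio passed the rule in either direction. Osm had log2 ratios of 0.17 in neutrophils (0.03 to 0.32), 0.31 in macrophages or monocytes (0.24 to 0.38), -0.02 in conventional dendritic cells (-0.28 to 0.24) and -0.20 in T or NK cells (-0.61 to 0.19). Il6ra lay between -0.14 and 0.44 in the 6 compared classes other than the endothelium, where 15 UMIs in Gel50_CS50 and 14 in Gel100 gave -1.08 (-2.23 to 0.09). Il6 lay between 0.07 and 0.48, with the lowest of these, in conventional dendritic cells, of the opposite sign under 7 of 11 alternatives, Osmr at 0.12 in stroma and 0.61 in endothelium, and Lifr between -0.34 and 0.58. The median ratio of all measured genes lay between -0.08 and 0.01 in the 7 classes.

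**Figure D5:**
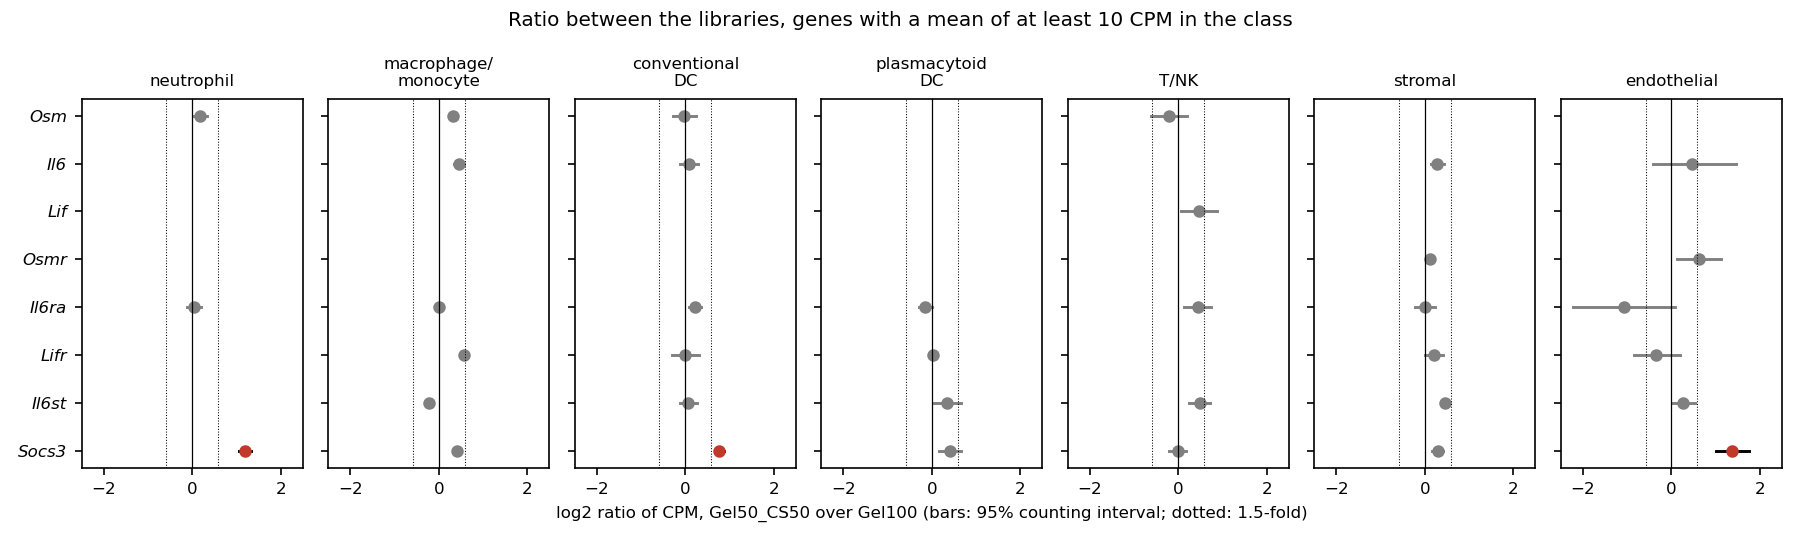
Log2 ratio of CPM, Gel50_CS50 over Gel100, for each measured gene in the 7 compared classes, with bars for the 95% counting interval and dotted lines at 1.5-fold. Red points have an interval wholly beyond 1.5-fold and are Socs3 in neutrophils (1.18), conventional dendritic cells (0.77) and endothelial cells (1.38).

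The other genes of the pathway were read from 6 lists. Among 8 further ligands, Ebi3, a subunit of interleukin-27, was highest in neutrophils at 307 CPM in Gel50_CS50 and 221 CPM in Gel100, and Clcf1, a gp130 ligand, in T or NK cells at 31.9 CPM and 34.2 CPM. Il27, the other subunit, was lower in Gel50_CS50 macrophages or monocytes, at 7.12 CPM in Gel50_CS50 and 15.1 CPM in Gel100 (log2 ratio -1.08), the only further ligand in any compared class to pass the rule, where 3.73% of all genes were lower. Among 4 further receptor chains none passed it. Il11ra1, the interleukin-11 receptor chain, was highest in stroma at 67.3 CPM in Gel50_CS50 and 65.6 CPM in Gel100, and Il27ra in T or NK cells at 71.9 CPM and 67.7 CPM.

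Among the 10 genes that relay the signal, none was higher in Gel50_CS50 in any compared class, and 1 was lower in neutrophils and 1 in macrophages or monocytes, where 5.25% and 3.73% of all genes were lower. Stat3, the main transcription factor of the pathway, had 390.2 CPM in Gel50_CS50 and 317 CPM in Gel100 neutrophils (0.30) and 273 CPM and 279 CPM in macrophages (-0.03). Among 8 inhibitors and receptor-shedding proteases, Socs1, the close relative of Socs3 that acts on interferon receptors, was lower in Gel50_CS50 in neutrophils and in macrophages or monocytes. It had 47.1 CPM in Gel50_CS50 and 110 CPM in Gel100 neutrophils (-1.22, -1.45 to -0.98) and 13.3 CPM and 34.0 CPM in macrophages (-1.36, -1.47 to -1.25). With the same cluster weights in both libraries the neutrophil ratio was -0.45, short of 1.5-fold, with Socs1 lower in 2 of the 4 clusters, and the macrophage ratio -0.67, with Socs1 lower in all 7 clusters. Cish, a STAT5-induced inhibitor, was higher in Gel50_CS50 T or NK cells, at 53.3 CPM in Gel50_CS50 and 30.1 CPM in Gel100 (0.82), where 0.857% of all genes were higher, but its ratio was 0.35 with the same cluster weights.

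Of 15 STAT3 response genes, 13 were measured in neutrophils, of which 5 were higher in Gel50_CS50 and 0 lower, with a median log2 ratio of 0.35 against -0.08 over all measured genes, of which 3.03% were higher. They were Saa3 and Hp, acute-phase proteins, with 796 CPM in Gel50_CS50 and 149 CPM in Gel100 and with 894 CPM and 523 CPM. Lcn2, which binds iron-carrying siderophores, had 4984 CPM in Gel50_CS50 and 1563 CPM in Gel100, Lrg1 531 CPM and 234 CPM, and Il4ra, the interleukin-4 receptor chain, 56.8 CPM and 23.7 CPM. The cluster led by Lcn2 held 660 of the Gel50_CS50 and 47 of the Gel100 neutrophils, and Lrg1 is a leading gene of the Cxcr2 cluster. With the same cluster weights in both libraries the log2 ratios were 1.67 for Saa3, 0.66 for Hp, 1.57 for Lcn2, 1.34 for Lrg1 and 1.67 for Il4ra. Saa3 and Il4ra were higher in Gel50_CS50 in all 4 neutrophil clusters, and Hp, Lcn2 and Lrg1 in 3, the exception being the cells led by Ngp. For Il4ra 2 of these clusters rest on few cells. It had 48.3 CPM in Gel50_CS50 and 0 CPM in the 47 Gel100 cells of the Lcn2 cluster, a 0 that enters its weighted ratio. In the cells led by Ngp it had 25.2 CPM (25 cells) and 7.95 CPM (41 cells). Lcn2 had 8173 CPM in Gel50_CS50 and 1936 CPM in Gel100 within the cluster it led. In macrophages or monocytes 3 of 12 were higher (Hp, Lcn2 and Saa3) and 0 lower, with a median of 0.11 against -0.02 over all genes, of which 2.09% were higher. Saa3 had 2147 CPM in Gel50_CS50 and 917 CPM in Gel100 there, Hp 263 CPM and 104 CPM, and Lcn2 30.4 CPM and 17.2 CPM. As Lcn2 is also a neutrophil marker, the part of neutrophil RNA in its macrophage value was not tested. The macrophage class too was made of different clusters, with 212 Gel50_CS50 and 1472 Gel100 cells in the cluster led by Gm15056, Ifit1bl1 and Ccl5 and 616 and 74 in the cluster led by Stfa3. With the same cluster weights the ratios were 1.43 for Saa3, 1.01 for Hp and 0.92 for Lcn2. In the other 5 compared classes 1 or 2 of the measured genes were higher, where 0.823% to 1.94% of all genes were. Lcn2 was lower in the endothelium, where 3.99% of all genes were. In T or NK cells the higher gene was Saa3, with 62.3 CPM in Gel50_CS50 and 32.7 CPM in Gel100. Saa3 is also a macrophage marker, and the part of macrophage RNA in the T or NK value was not tested. Pim1, Junb and Mcl1, general response genes, had log2 ratios of 0.03, 0.12 and 0.11 in neutrophils. In the stroma the 2 higher genes were Hp, with 90.1 CPM in Gel50_CS50 and 9.84 CPM in Gel100, and Lcn2, with 26.0 CPM and 2.15 CPM. Lcn2 was higher in Gel50_CS50 in all 3 stromal clusters and Hp in 2. Hp had 136 CPM in Gel50_CS50 and 4.69 CPM in Gel100 in the Tnn cluster, but 8.41 CPM and 11.1 CPM in the Mgp cluster. All 22 neutrophil markers, Lcn2 among them, were detected in the stroma and summed to 558 CPM in Gel50_CS50 and 440 CPM in Gel100, and their part in these values was not tested.

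Of 10 genes known to respond to oncostatin M in stromal cells, all 10 were measured in the stroma. There 2 were higher in Gel50_CS50 and 3 lower, where 0.931% of all genes were higher and 2.12% lower. The median log2 ratio was -0.12 against -0.03 over all genes. The collagenase gene Mmp13 had 125 CPM in Gel50_CS50 and 29.4 CPM in Gel100 (2.09), and Mmp3, another matrix protease gene, 43.3 CPM and 24.1 CPM (0.85). Among the lower genes, the monocyte attractant Ccl2 had 391 CPM in Gel50_CS50 and 808 CPM in Gel100 (-1.05) and the angiogenic factor Vegfa 60.3 CPM and 100.3 CPM (-0.73). With the same cluster weights these stromal ratios were 1.74 for Mmp13, 0.79 for Mmp3, -0.90 for Ccl2 and -0.64 for Vegfa. Mmp13 had 114 CPM in Gel50_CS50 and 1.69 CPM in Gel100 in the Tnn cluster, and 182 CPM and 125 CPM in the Mgp cluster. In the Pi16 cluster it had 0.301 CPM and 0 CPM, too little to compare. Vegfa was lower in Gel50_CS50 in all 3 stromal clusters. Mmp3 was higher in 2, except in the Pi16 cluster (42.1 CPM and 138 CPM). Ccl2 was lower in 2, except in the Mgp cluster (165 CPM and 53.6 CPM). In macrophages or monocytes 2.09% of all genes were higher and 3.73% lower. Pdpn (294 CPM in Gel50_CS50 and 127 CPM in Gel100) and Timp1 (18.3 CPM and 8.13 CPM) were among the higher genes in that class. There Ccl2 (337 CPM and 708 CPM), Ccl7 (282 CPM and 558 CPM) and Mmp13 (10.9 CPM and 33.2 CPM) were lower, so Mmp13 went opposite ways in stroma and macrophages, a contrast that has no test with 1 library per group. With the same cluster weights the macrophage ratios were 0.66 for Pdpn, 0.97 for Timp1, -0.73 for Ccl2, -0.62 for Ccl7 and -1.65 for Mmp13, and Il27 stood at -0.69. In T or NK cells Ccl2 (12.1 CPM in Gel50_CS50 and 24.4 CPM in Gel100) and Vegfa (29.7 CPM and 55.6 CPM) were lower and none was higher. Of all genes measured in that class, 1.15% were lower and 0.857% higher. The part of macrophage RNA in the T or NK value of Ccl2 was not tested.

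The genes with the patterns most like those of the members were found by Pearson correlation of log levels over 29 clusters among 8366 genes. The clusters share libraries and depths and related clusters are not independent, so the values are descriptions. Osm was most like Rabgef1 (0.92), Lilr4b (0.90), Etf1 (0.90), Cyp4f18 (0.89) and Lilrb4a (0.89). Osmr was most like Lama4 (0.97), Rhoj (0.96), Casp12 (0.96), Tgfb1i1 (0.95) and Rbms3 (0.95), and Lifr most like Xbp1 (0.80), Tcf4 (0.79), Tcf7l2 (0.78), Gm13919 (0.78) and Mef2c (0.78). Socs3 was most like Gtsf2 (0.85), Zfp263 (0.83), Adprh (0.81), Zfand3 (0.80) and the transcriptional repressor gene Bcl6 (0.79). Il6ra was most like Gpr35 (0.84), Gm46224 (0.82), Skap2 (0.82), Gm36161 (0.82) and Ptprj (0.82), and Il6st most like Abi2 (0.89), Ift74 (0.88), Dag1 (0.87), Nbdy (0.87) and Qser1 (0.86). Lif was most like Cited4 (0.84), Rab27b (0.73), Mcpt8 (0.69), B3galt5 (0.68) and Rgs13 (0.67). The mast cell or basophil cluster, the highest in Lif, was among the clusters correlated and held 36 Gel50_CS50 and 14 Gel100 cells. The genes near Il6 included Oaf (0.78), Jun (0.77), Papss2 (0.77) and Cgnl1 (0.75). Among the members, Il6st and Osmr were alike (0.60), and Osm ran opposite to Il6st (-0.80) and Osmr (-0.58).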

How the data were processed

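The deposited matrices hold whole-number UMI counts per gene and barcode, not normalized, which per the file headers came from Cell Ranger 6.0.2. The submitters' processing notes name mm10, and the gene annotation behind the counts was not among the sources at hand. How reads shared by near-identical genes were treated is likewise unstated, which leaves Stfa3, Ifit1bl1, Lilr4b and Lilrb4a uncertain. The matrices held 7515 (Gel50_CS50) and 7845 (Gel100) barcodes with 150311308 and 108847835 UMIs. Barcodes needed 200 genes, 500 UMIs and under 20% mitochondrial counts, which removed 117 and 65, and Scrublet (expected rate 0.06) removed 192 and 179 doublets. Counts scaled to 10000 per cell gave 3000 variable genes, with the 8 genes and their pathway lists left out, then 30 principal components and Leiden clusters at resolution 1.0, using scanpy 1.11.5, leidenalg 0.10.2, Python 3.11.15, numpy 2.4.6 and scipy 1.17.1. A cluster took the class with the highest marker score, if that was at least 1.5, led by 0.5 and rested on 3 markers found in 10% of its cells, limits set after the data were seen. Positions came from GENCODE vM21, where 99.6% of the identifiers were found.

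Counts were summed per class and library. Ratios are Gel50_CS50 over Gel100 with exact conditional binomial 95% intervals. The ratio calls were tested on simulated counts with known changes. Those counts held counting error only, so the simulation cannot show how the calls behave under spread between cells, mice or pools. No p-value is given, because there is 1 library per group. Genes named beside the 8 members are up to 3 list genes per direction with the largest ratios past the rule, in macrophages, neutrophils, stroma and T or NK cells, and the 5 closest correlates per member over clusters. Hp and Lrg1 in neutrophils, Ebi3, Clcf1, Il11ra1, Il27ra, Stat3, Pim1, Junb, Mcl1 and endothelial Lcn2 fall outside that rule and were chosen after their values were seen. Some genes that the rule names are not reported here. The members, gene lists and naming rules were chosen with earlier results of these data known. Alternatives changed the weight of cells, depth, scaling, minimum level, class assignment, clustering, doublets and shared barcodes.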

Additional observations from a re-analysis of the deposited data

How the results depend on the processing

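The count of 3 gene and class pairs higher in Gel50_CS50 became 9 when each cell was weighted equally, 6 with no minimum level (adding Lif in macrophages, Osm in plasmacytoid dendritic cells and Osm in stroma) and 1 with cells thinned to 3000 UMIs, where only Socs3 in neutrophils remained. The count of 0 lower pairs became 2 with each cell weighted equally (Il6ra and Lifr in endothelium) and 1 with the same cluster weights in both libraries (Il6ra in endothelium). Weighted values have no counting interval, so there the point ratio alone decided, and the cause was not tested further. Under the other alternatives run the counts were 3 to 4 and 0. Of 407 alternative values of 37 ratios of the 8 genes, 344 moved by less than the counting interval, 63 moved by more, and no ratio past the rule changed sign. Part of the 344 was fixed in advance, because some alternatives left a class untouched. Leaving out the Dcstamp cluster changed only dendritic cells, and equal cluster weights could not change the endothelium, a single cluster. The log2 ratio of Socs3 ranged from 0.97 to 1.26 in neutrophils, 0.64 to 1.07 in conventional dendritic cells and 1.19 to 1.53 in endothelial cells, and that of Lif in macrophages from 2.26 to 3.46. At resolution 2.0 the dendritic Socs3 value no longer passed the rule, and Il6 in macrophages passed it at 15.6 CPM in Gel50_CS50 and 7.86 CPM in Gel100. The log2 ratio of Il6 in conventional dendritic cells, 0.07, had the opposite sign under 7 of 11 alternatives, 6 of them beyond 1.5-fold, down to -0.76 with called doublets kept, and the Gel100 class highest in Il6 was stroma under 5 alternatives. Leaving out the Dcstamp, Retnla and Cd209a cluster, and giving the list genes the same cluster weights, were added after the data were seen. No paired analysis was possible because each group is 1 library. In the endothelium Il6ra, Il6, Osmr and Lifr rest on 14 to 152 UMIs per library. With the unnamed low-UMI cells given to stroma, their closest class, the log2 ratio of Il6ra in stroma moved from 0.0001 to -0.70.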
